A study of Homo sapiens and Mus musculus with 16 samples.

Results

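The 10 integrin genes were followed across open chromatin lists from human and mouse pancreatic cancer cells: ITGA2, ITGA3, ITGA5, ITGA6, ITGAV, ITGB1, ITGB4, ITGB5, ITGB6 and ITGB8, with the mouse genes of the same symbols. A region belonged to a locus when it overlapped the annotated gene body or the 50 kb on either side of it by at least 1 bp. The rule uses gene names and positions alone, and the set was chosen with earlier results of these data known. They are 10 of 20033 human and 21938 mouse protein-coding genes. Their loci held 184 of 118107 regions in the HPAF-II control list, 156 of 97047 in the HNF4G-KO list, 156 of 68074 in the KPC primary tumor list and 186 of 80843 in the KPC liver mets list, and no region fell in the windows of 2 members.

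The regions came from ATAC-seq, in which a transposase cuts and tags accessible DNA. HPAF-II is an established human line of pancreatic ductal adenocarcinoma (PDAC). Its control (Cas9) cells carried Cas9 alone, and its HNF4G-KO cells carried CRISPR edits in HNF4G, the gene of a nuclear receptor transcription factor; by the study's methods the knockout is a pool of single-cell clones, so clone differences and the loss of HNF4G cannot be told apart. KPC cells come from a genetically engineered mouse model of PDAC driven by a pancreas-directed Cre, and the pair here is a primary tumor line and a line from matched liver metastases (mets), so the change of site and the derivation of a second line cannot be told apart. Each of the 4 groups had 4 samples, but a single list of regions was used per group, with 1 score per region. There was therefore no spread between replicates, no test was made, and the intervals given are Wilson 95% intervals that cover counting error only. Since the scale of the score is not given in the sources used here, scores were read only as ranks: a list percentile is the position of a region's score in its own list, from 0 to 100.

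Integrins are heterodimers of an alpha and a beta chain that anchor cells to the extracellular matrix and to other cells and signal in both directions across the membrane. In ductal epithelium and its tumors the beta 1 chain pairs with several alpha chains, alpha 6 beta 4 holds cells to laminin at hemidesmosomes, and the alpha V integrins bind ligands with the RGD motif, some of them releasing TGF-beta from its latent form. An open region near such a gene marks accessible DNA and is not a measure of its RNA or protein.

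Across the lists, all 5 epithelial marker genes examined (EPCAM, CDH1, KRT8, KRT18 and KRT19) had a region within 1 kb of an annotated start site in each list, and PTPRC, CD3E, CDH5, DCN and ALB, taken from the lists of other cell types, had none in any list. Other genes of those lists did have one. Of the leukocyte markers 1 of 3 (CD68) had a start-site region in every list, and of the endothelial markers 0 of 2 in both HPAF-II lists and 1 of 2 in both KPC lists (Pecam1, at list percentile 84.3 in the primary tumor and 70.4 in the mets). The fibroblast markers had 3 of 4 in both HPAF-II lists and 2 of 4 in both KPC lists, the hepatocyte markers 2 of 3 in each list but the mets list, which had 1 of 3, and the acinar markers 1 of 3 in control, 2 of 3 in HNF4G-KO and 0 of 3 in both KPC lists. Of 5 integrin genes of platelets and leukocytes, 3 had a start-site region in both HPAF-II lists and 4 in both KPC lists. What part such cells had in the lists was not tested. Of all protein-coding genes 74.8% in control, 72.8% in HNF4G-KO, 58.0% in the primary tumor and 59.1% in the mets had a start-site region. By list percentile the epithelial markers' strongest start-site regions ranked from 54.2 to 94.5 in control and from 54.0 to 98.2 in HNF4G-KO. In KPC they ranked lower, from 16.1 to 58.1 in the primary tumor and from 13.9 to 65.9 in the mets. Some markers of other cell types ranked as high or higher. CD68 stood at 96.8 in control and 95.1 in HNF4G-KO, and COL1A1 at 86.7 and 94.1. Apob (86.3 in the primary tumor and 76.3 in the mets) and Col1a1 (75.8 and 79.8) ranked above all 5 epithelial markers. Others ranked lower, such as CELA3B at 45.8 in control and Ttr at 30.9 in the primary tumor. The HNF4G gene itself had a start-site region at list percentile 82.4 with Cas9 alone and 82.7 after the knockout, which does not check the knockout, since small edits leave the region in place.

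The following human regions are shown because they were the highest-ranked distal regions found in only 1 list of the pair and the shared regions with the largest changes in rank. All are plus-strand hg38 sequence, up to 300 bases around the region's center, outside annotated exons. Capitals mark exact matches, on either strand, to the AP-1 letters TGACTCA (which read TGAGTCA on the other strand), the RUNX letters TGTGGTTT or the GATA letters AGATAAG. The first is the intronic ITGB6 region of the control list at chr2:160110009-160110280, the second lies 28.5 kb upstream of ITGB6 at chr2:160228665-160228883, and the third is the HNF4G-KO region 44 kb upstream of ITGAV at chr2:186545961-186546160. The fourth is taken from a shared ITGA3 region near an internal start site (chr17:50079686-50079985), which had the largest change downward, and the last is a shared region in an ITGA6 intron (chr2:172455110-172455398), which had the largest change upward.
ITGB6 intron, control only: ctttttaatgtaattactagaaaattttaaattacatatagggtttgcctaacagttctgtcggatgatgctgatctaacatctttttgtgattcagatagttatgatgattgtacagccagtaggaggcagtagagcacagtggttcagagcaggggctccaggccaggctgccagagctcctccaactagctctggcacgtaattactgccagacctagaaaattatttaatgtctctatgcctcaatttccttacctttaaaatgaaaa
ITGB6 upstream, control only: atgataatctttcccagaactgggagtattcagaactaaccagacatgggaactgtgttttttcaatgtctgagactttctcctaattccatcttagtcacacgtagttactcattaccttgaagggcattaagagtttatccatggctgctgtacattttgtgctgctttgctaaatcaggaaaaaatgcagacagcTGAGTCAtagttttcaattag
ITGAV upstream, HNF4G-KO only: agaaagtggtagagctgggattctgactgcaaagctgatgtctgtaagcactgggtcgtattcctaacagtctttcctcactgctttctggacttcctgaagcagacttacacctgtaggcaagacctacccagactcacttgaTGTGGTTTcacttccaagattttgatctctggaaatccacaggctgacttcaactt
ITGA3 internal start, lower in HNF4G-KO: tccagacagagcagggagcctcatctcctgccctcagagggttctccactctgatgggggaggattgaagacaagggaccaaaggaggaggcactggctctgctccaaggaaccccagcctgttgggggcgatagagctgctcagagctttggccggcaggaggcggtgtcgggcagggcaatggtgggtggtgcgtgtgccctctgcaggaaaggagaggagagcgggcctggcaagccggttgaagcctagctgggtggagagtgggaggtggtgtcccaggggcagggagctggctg
ITGA6 intron, higher in HNF4G-KO: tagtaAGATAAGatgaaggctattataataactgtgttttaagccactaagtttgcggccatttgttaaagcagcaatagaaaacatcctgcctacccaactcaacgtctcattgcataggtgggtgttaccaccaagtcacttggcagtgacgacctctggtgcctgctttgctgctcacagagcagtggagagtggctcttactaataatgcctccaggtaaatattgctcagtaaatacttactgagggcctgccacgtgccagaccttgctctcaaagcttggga

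The mouse regions were chosen in the same way and are plus-strand mm10 sequence with the same capitals. They are the primary tumor region downstream of Itgb4 at chr11:116018174-116018473, the mets regions 27.0 kb upstream of Itga5 at chr15:103393640-103393939 and in an Itgb5 intron at chr16:33873281-33873580, a shared Itga6 intronic region at chr2:71778412-71778711 that ranked lower in the mets, and shared regions 33.6 kb upstream of Itgav at chr2:83690618-83690917 and in an Itga2 intron at chr13:114876172-114876471 that ranked higher.
Itgb4 downstream, tumor only: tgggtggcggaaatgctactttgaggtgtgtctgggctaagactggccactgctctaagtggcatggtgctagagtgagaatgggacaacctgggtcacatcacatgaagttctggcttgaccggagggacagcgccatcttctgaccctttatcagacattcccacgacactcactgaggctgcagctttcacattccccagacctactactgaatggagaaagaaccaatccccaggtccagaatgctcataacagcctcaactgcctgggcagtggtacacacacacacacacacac
Itga5 upstream, mets only: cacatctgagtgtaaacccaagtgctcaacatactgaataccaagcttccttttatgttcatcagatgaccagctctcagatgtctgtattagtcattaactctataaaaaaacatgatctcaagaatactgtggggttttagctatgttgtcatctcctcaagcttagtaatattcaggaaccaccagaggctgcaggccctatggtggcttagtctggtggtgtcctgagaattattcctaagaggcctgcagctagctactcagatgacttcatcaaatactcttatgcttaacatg
Itgb5 intron, mets only: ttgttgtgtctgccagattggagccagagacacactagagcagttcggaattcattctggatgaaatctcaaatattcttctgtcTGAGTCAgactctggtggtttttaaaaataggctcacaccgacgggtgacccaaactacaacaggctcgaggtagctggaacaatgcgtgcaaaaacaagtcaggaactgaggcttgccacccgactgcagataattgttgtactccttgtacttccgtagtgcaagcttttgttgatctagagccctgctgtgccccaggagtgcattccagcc
Itga6 intron, lower in mets: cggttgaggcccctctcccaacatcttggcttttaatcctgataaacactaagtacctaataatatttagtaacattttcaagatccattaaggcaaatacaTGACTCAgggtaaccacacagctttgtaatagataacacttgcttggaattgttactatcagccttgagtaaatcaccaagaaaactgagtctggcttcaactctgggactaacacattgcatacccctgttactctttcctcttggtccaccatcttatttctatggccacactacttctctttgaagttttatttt
Itgav upstream, higher in mets: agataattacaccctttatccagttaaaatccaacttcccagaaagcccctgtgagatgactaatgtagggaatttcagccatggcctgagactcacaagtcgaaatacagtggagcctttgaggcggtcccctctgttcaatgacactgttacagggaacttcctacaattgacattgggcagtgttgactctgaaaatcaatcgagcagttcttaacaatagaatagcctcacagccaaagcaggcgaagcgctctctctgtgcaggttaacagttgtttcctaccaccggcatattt
Itga2 intron, higher in mets: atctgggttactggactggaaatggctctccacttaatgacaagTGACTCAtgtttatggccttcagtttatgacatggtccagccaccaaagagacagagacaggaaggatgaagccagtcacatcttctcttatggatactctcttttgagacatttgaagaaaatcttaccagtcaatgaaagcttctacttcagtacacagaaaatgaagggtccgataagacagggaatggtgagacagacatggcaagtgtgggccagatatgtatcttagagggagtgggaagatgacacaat

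The first comparison asked which regions at the integrin loci were in one list and not in the other when HPAF-II cells had lost HNF4G. Of the 184 control regions, 39 had no overlap in the HNF4G-KO list, a share of 21.2% (15.9 to 27.7), against 25.0% of the whole control list. In the other direction 6 of 156 HNF4G-KO regions had no overlap in the control list, 3.85% (1.77 to 8.14), against 6.76% of the whole HNF4G-KO list. Counting regions within 500 bp of each other as shared left 2 of 156 KO-only, 1.28%, against 5.49% of the list. Both shares at the integrins thus lay near or below those of all regions, and the interval of the control-only share includes the share of the whole list. The control list was the longer of the pair. When each list was reduced to its strongest 97047 regions, the shares at the integrins were 11.7% control-only and 8.97% KO-only, against 15.1% and 12.7% of the reduced lists.

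Control-only regions were weak. Of the 39, 30 lay below list percentile 30, and their median list percentile was 16.6, against 67.6 for the shared control regions. Their median width was 249 bp, against 605 bp for the shared regions. Below percentile 50 of the control list, 38 of 78 integrin regions (48.7%, 37.9 to 59.6) were control-only, beside 48.2% of all regions there, and above it 1 of 106 (0.943%) was, beside 1.86%. Of the control integrin regions 57.6% ranked above percentile 50, as did 55.8% of those after the knockout, where a whole list has about 50% by construction; in KPC 78 of 156 primary tumor and 93 of 186 mets regions did. Within each rank class, then, the control-only share at the integrins was near or below that of the list.

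**Figure D1:**
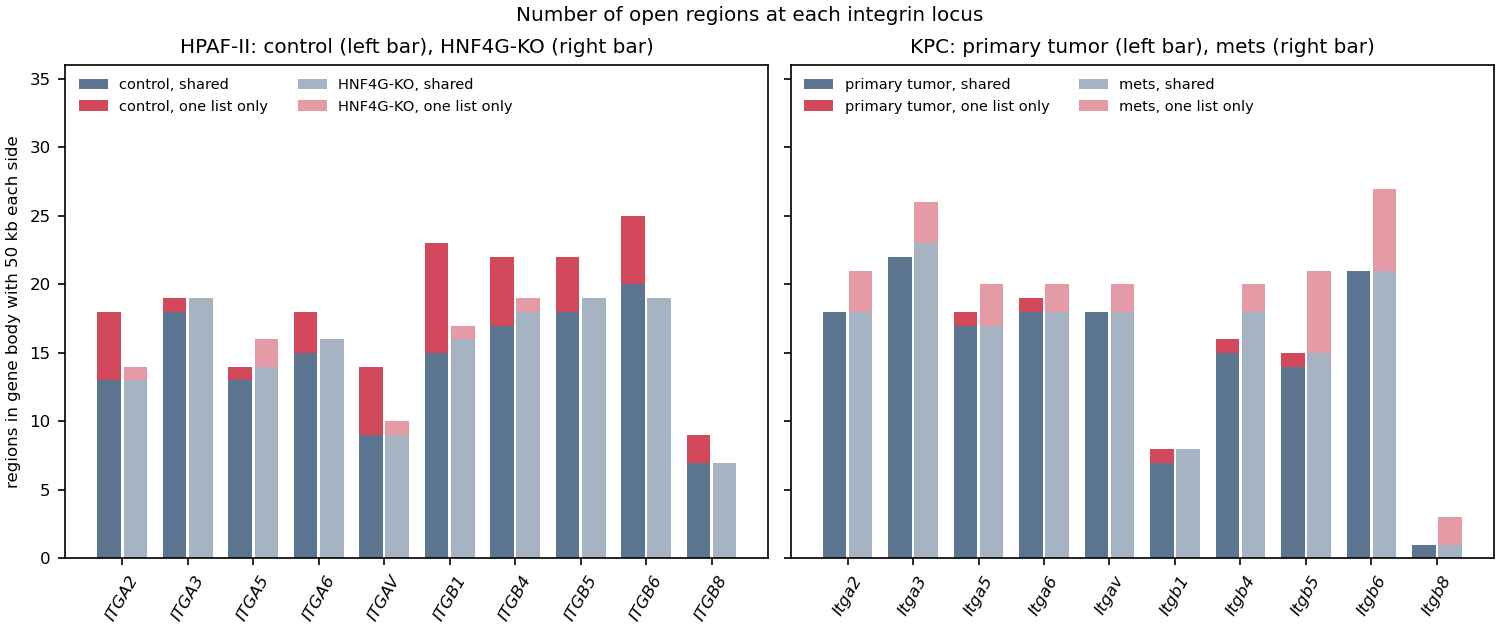
Number of regions per integrin locus (gene body with 50 kb on each side), in HPAF-II control and HNF4G-KO (left) and KPC primary tumor and mets (right). Blue parts overlap the other list of the pair and red parts do not; ITGB1 had the most control-only regions (8 of 23), and Itgb8 held 1 region in the primary tumor and 3 in the mets.

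Among the alpha chains, ITGA2, the collagen-binding partner of beta 1 (chr5:52989340-53094779), had 5 control-only regions of 18 and 1 KO-only region of 14. Of the 5 control-only regions 3 were intronic, the strongest of them 22.1 kb into the gene at list percentile 33.9, and the KO-only region lay 107 kb from the 5′ end, beyond the 3′ end, at list percentile 40.0, nearest to the start of MOCS2. The laminin-binding ITGA3 (chr17:50055968-50090481) had the same number of regions in both lists, 19, with 1 control-only region, at 4.44, and no KO-only region. ITGA6 (chr2:172427354-172506459), which pairs with beta 1 or beta 4, had 3 control-only regions of 18, all in its body, 14.1, 20.6 and 37.2 kb from its 5′ end at list percentiles 34.1, 34.6 and 47.4, and no KO-only region among 16. These 3 regions sat between shared intronic regions of the same gene, as the map of HPAF-II loci shows.

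The fibronectin receptor chain ITGA5 (chr12:54395261-54419266) was the only human member with more regions in the HNF4G-KO list, 16 against 14, with 1 control-only and 2 KO-only regions; none of those 3 lay in the gene body, and all ranked at or below list percentile 8.54. ITGAV (chr2:186590010-186680901), the alpha chain of the RGD-binding alpha V integrins, had 5 control-only regions of 14 (35.7%, 16.3 to 61.2) and 1 KO-only region of 10. That KO-only region and a control-only region beside it were 148 bp apart 44 kb upstream, so they count as different regions only by position. Both were weak, at list percentiles 19.1 and 10.1, and the highest of the 5, 1.09 kb into the gene, stood at 22.3.

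Of the beta chains, ITGB1 (chr10:32887273-33005792), the partner of most of these alpha chains, had the most control-only regions, 8 of 23 (34.8%, 18.8 to 55.1), and 1 KO-only region of 17, at 24.0. All 8 fell within the annotated gene body, at list percentiles from 1.13 to 29.5, and 5 of them lay over 90 kb from the annotated 5′ end, towards the 3′ end of the gene. ITGB4 (chr17:75721328-75757818), the hemidesmosome chain, had 5 control-only regions of 22 and 1 KO-only region of 19, at 11.8. One of the 5, at list percentile 49.4 and 28.7 kb into the gene, was the second highest of all control-only integrin regions and touches an exon.

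ITGB5, ITGB6 and ITGB8 are among the genes of beta chains that pair with alpha V. They had no KO-only region, among 19, 19 and 7 regions. In all 5 of the 10 members had none, where 59.7% of protein-coding genes with a region had none. ITGB5 (chr3:124761948-124901418) had 4 control-only regions of 22, all at or below list percentile 13.4. ITGB6 (chr2:160099667-160200313), an epithelial chain that binds latent TGF-beta, had 5 of 25, among them the only control-only integrin region above percentile 50: the intronic region shown above, at list percentile 52.1, 90.2 kb from the 5′ end. The upstream ITGB6 region with the AP-1 letters ranked at 45.1. ITGB8 (chr7:20330702-20415754), another chain of latent TGF-beta receptors, had 2 of 9, both outside the gene body, the higher at 33.0. By control-only share the loci ran from 5.26% at ITGA3 (0.935 to 24.6) and 7.14% at ITGA5 to 34.8% at ITGB1 and 35.7% at ITGAV; with 9 to 25 regions a locus these intervals overlap, and the order is not resolved.

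**Figure D2:**
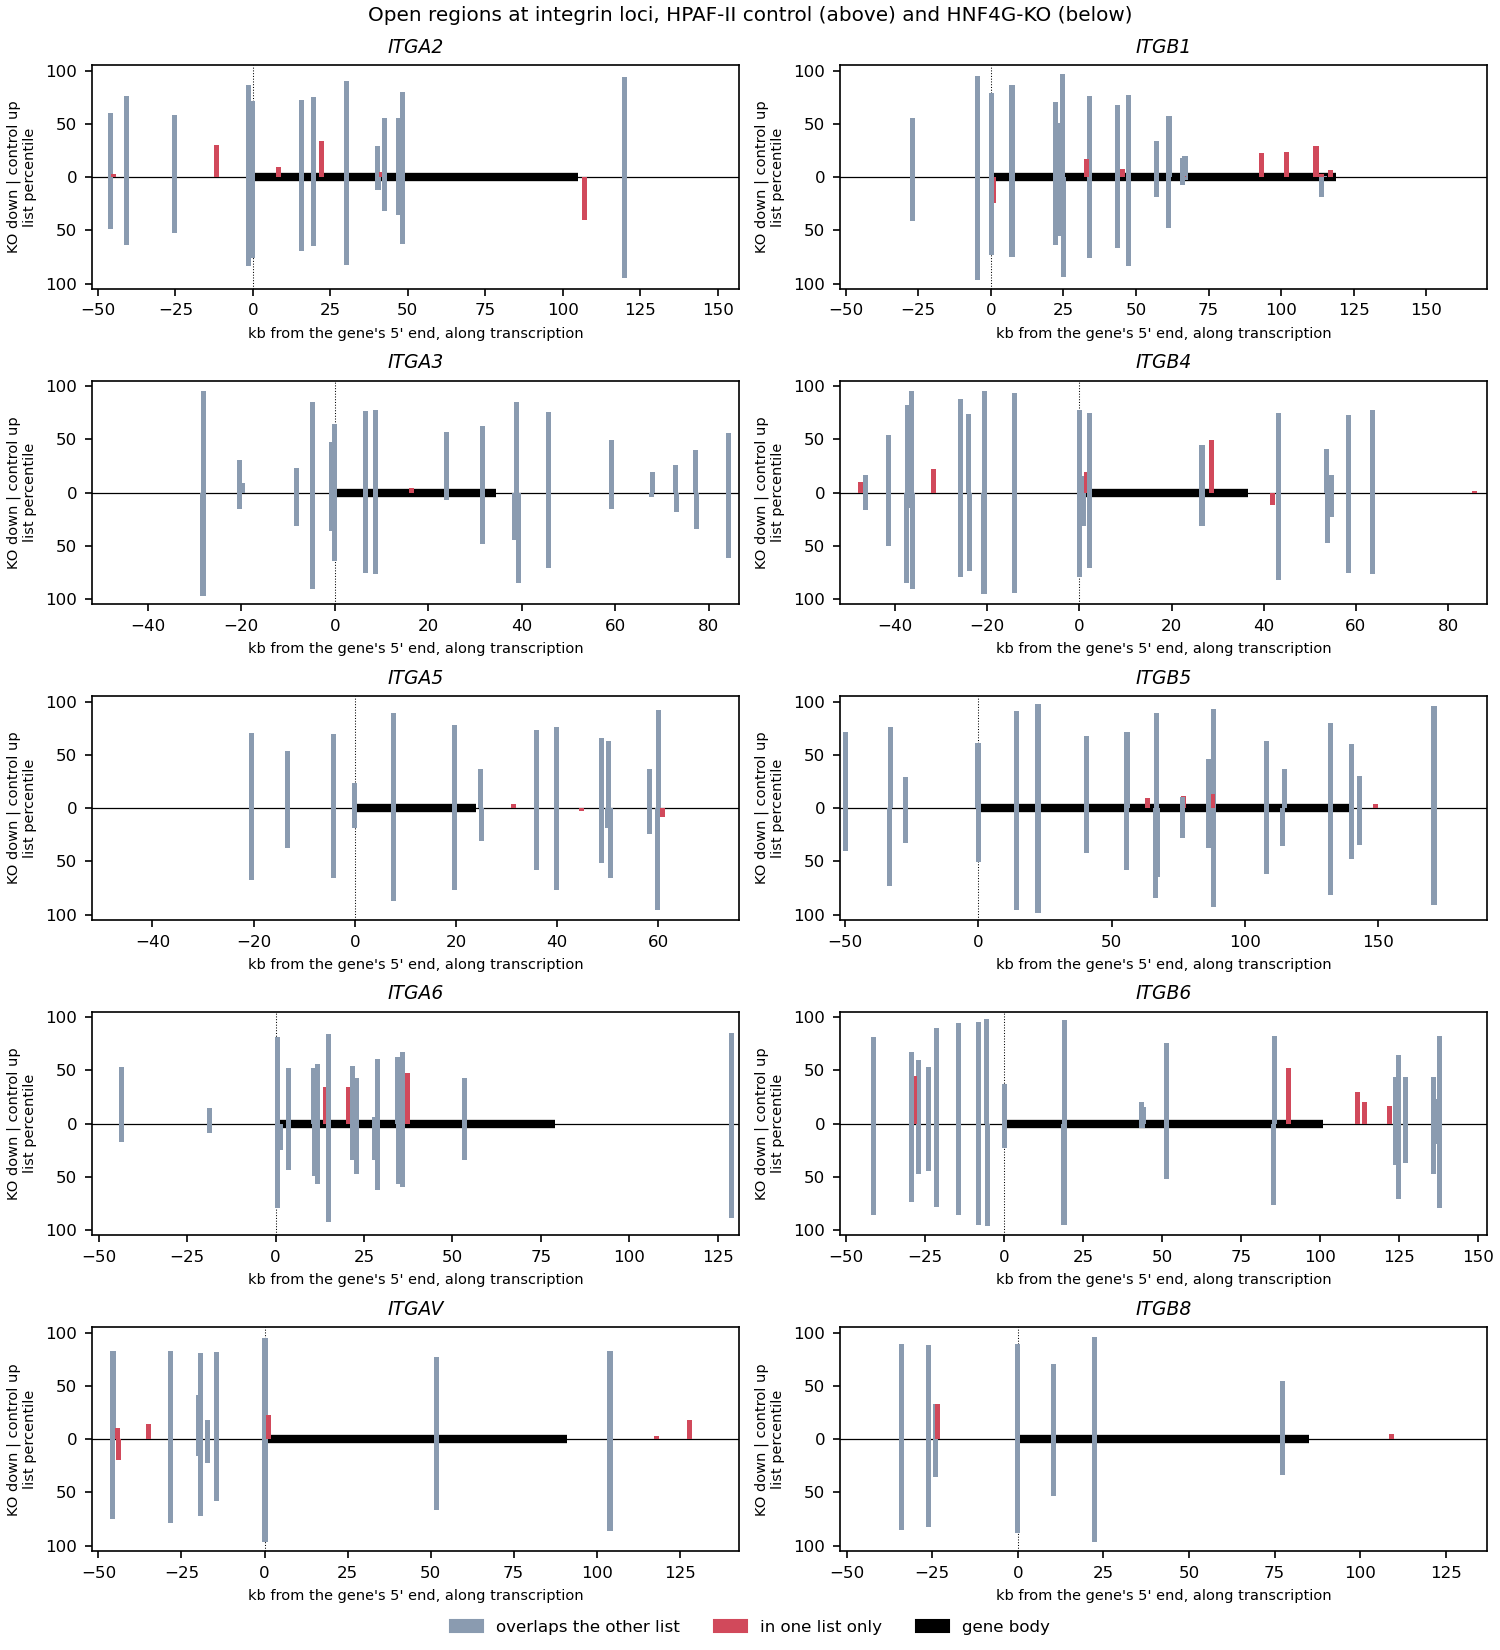
Regions at the 10 human loci by distance in kb from the gene's 5′ end along transcription, with the list percentile of each region upward for control and downward for HNF4G-KO. Red regions had no overlap in the other list and are short bars, the tallest being the ITGB6 intronic region at 52.1; the black bar is the gene body.

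The shared regions were compared next. For each of the 145 shared control regions the score was ranked again among shared regions only, in each list, so that the longer list does not shift the ranks, and the change is the percentile of the HNF4G-KO region with the longest overlap minus that of the control region. Rose and fell are used below of moves over 10 points between these single lists. The median change at the integrins was 1.30 points, with 63 regions lower and 82 higher in HNF4G-KO (43.4% lower, 35.7 to 51.6, against 49.9% of all shared regions). Moves over 10 points were few: 15 regions (10.3%) were lower by more than that, beside 19.1% of all shared regions, and 23 (15.9%) were higher, beside 18.2%. The quartiles of the change were -4.70 and 6.40 at the integrins, and -7.16 and 6.91 over all shared regions. Moves down by over 10 points were thus less frequent at the integrins than in the list, a difference that was not tested. The direction turned with the scale: with percentiles taken in the whole lists, where the lengths of the lists enter, the median change was -4.00, and 69.0% of the regions were lower in HNF4G-KO, beside 70.0% of all shared regions. By over 10 points 27.6% were then lower, beside 33.6% of all, and 2.76% higher, beside 7.75%. The changes that follow are those among shared regions.

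The counts by direction varied from locus to locus. With 7 to 20 shared regions a locus, whether the loci differ in direction was not tested. At ITGB4, 14 of 17 shared regions ranked higher in HNF4G-KO (median 4.75 points), 4 of them by over 10, and none fell by over 10. Most of these regions lay outside the ITGB4 body. Of the 22 control regions in its window 6 lay in the body, 2 of them control-only, and 6 had ITGB4 as the nearest coding start. ITGA6, its partner, had 12 of 15 higher (median 1.83), with changes from -26.0 in a region 43.5 kb upstream to 26.8 in the intronic region shown above. At ITGA2 the tendency was the other way, with 9 of 13 lower (median -5.14), as at ITGAV, with 6 of 9 lower (median -4.57). The medians of the others lay between -1.46 at ITGB1 and 3.15 at ITGA5.

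Single regions stood out within this pattern. The ITGA3 region at chr17:50079612-50080058, within 1 kb of an internal start site, went from percentile 42.9 to 4.79 among shared regions, a change of -38.1, although ITGA3 as a whole had a median of 2.45. An AP-1-bearing region 49.8 kb upstream of ITGB5 fell from 61.9 to 34.2, but its nearest coding start is that of MUC13. The region 14.5 kb upstream of ITGAV (chr2:186575333-186575673), also with the AP-1 letters, changed by -21.6, from 75.5 to 53.9. An ITGB6 intronic region with the FOXA letters TGTTTAC, 51.4 kb from the 5′ end, went from 67.4 to 46.9. In the ITGA2 body 2 AP-1-bearing regions 42.6 and 48.4 kb from the 5′ end changed by -15.0 and -14.1. Outside ITGA6 the largest rise was 19.4, in the ITGB4 region 0.970 kb from its 5′ end, followed by 19.1 in an ITGB5 intron. The largest rises at the other loci were 16.0 at ITGA3, 15.5 at ITGB1, 14.2 at ITGB6 and 12.1 at ITGB8, and those of ITGA5, ITGA2 and ITGAV lay between 10.4 and 12.1. The regions with the largest rises at ITGA3, ITGB1 and ITGAV also hold the AP-1 letters, so regions with these letters moved both ways. In the ITGA3 window a region at a start of SAMD14 changed by -23.1. At the loci with no fall given so far, the largest were -13.4 at ITGB8 and -11.9 at ITGA5, and none at ITGB1 or ITGB4 exceeded 10 points. Other falls over 10 points are not listed.

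All 10 human members had a region within 1 kb of an annotated start in both lists, where 74.8% of protein-coding genes had one with Cas9 alone and 72.8% after the knockout. The strongest such region of each gene was compared with the region over it in the other list, as list percentiles. For ITGB5 they were 97.5 in control and 98.1 in HNF4G-KO, and for ITGAV 95.2 and 96.8. ITGB8 (89.3 and 88.4), ITGA2 (86.4 and 83.5), ITGA6 (81.3 and 78.9), ITGA5 (78.0 and 77.3), ITGB4 (77.8 and 79.7) and ITGA3 (77.2 and 76.0) moved by less than 3 points. The ITGA6 region faced a further HNF4G-KO region, 251 bp long at 24.3. The ITGA2 region was centered 1.33 kb upstream, and its HNF4G-KO partner lay just outside the 1 kb window. The region over the ITGA2 5′ end went the other way, from 71.5 in control to 75.6 in HNF4G-KO. The region over the annotated 5′ end of ITGB1 went from 79.2 to 72.9, while the region at another ITGB1 start site, chr10:32957989-32958897 in HNF4G-KO, ranked at 83.2 there and at 77.3 in control. The strongest start-site region can lie at an internal start: it was 8.72 kb from the 5′ end at ITGA3, 19.7 kb at ITGA5 and 22.4 kb at ITGB5. Over its 5′ end ITGA5 had a region at 23.6 in control and 18.5 in HNF4G-KO. By the strongest start-site region ITGB6 ranked lowest of the 10, at 37.2 in control and 22.8 in HNF4G-KO, though above that ITGA5 5′ end region. The ITGB6 locus nevertheless held the highest-ranked integrin region of the control list, 5.44 kb upstream, at 97.9 (96.1 in HNF4G-KO). Open DNA at ITGB6 thus ranked higher just upstream than at the start site.

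The strongest region of each locus was shared in all 10 cases in both lists. It ranked between 85.4 and 97.9 in control and between 92.6 and 98.1 in HNF4G-KO. In the control list it was at a start of the member itself for 2 genes (ITGAV and ITGB5) and at a start of another gene for 5, among them MOCS2 beside ITGA2, PDK1 beside ITGA6 and the noncoding ITGB1-DT within the annotated ITGB1 body. ITGA3 had its strongest region 28.1 kb upstream, at 96.8 in HNF4G-KO. The ITGB8 maximum lay 22.4 kb into the gene, at 95.8 and 96.1, and carries the AP-1 letters. Of the 184 control regions 128 (69.6%) had the member as the nearest coding start, and the rest were nearer to a neighbor.

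In KPC cells the question was how the same loci differed between the primary tumor line and the line from liver mets. Here 5 of 156 primary tumor regions had no overlap in the mets list, 3.21% (1.38 to 7.28), against 8.51% of the whole primary tumor list, and 29 of 186 mets regions had none in the primary tumor list, 15.6% (11.1 to 21.5), against 20.2% of the whole mets list. The mets list was the longer one. With each list reduced to its strongest 68074 regions, the integrin shares were 12.8% tumor-only and 10.2% mets-only, so the larger share changed sides with the length of the lists. In both settings the integrin shares lay below those of the list (15.6% and 14.0% at equal size).

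Here, too, most one-list regions ranked low: 24 of the 29 mets-only regions lay below list percentile 30, with a median of 17.9 against 56.9 for shared mets regions. Below percentile 50 of the mets list 27 of 93 (29.0%, 20.8 to 38.9) were mets-only, beside 36.3% of the list, and above it 2 of 93, 2.15% beside 4.17%. The 5 tumor-only regions were all among the 78 regions below percentile 50 (6.41%, 2.77 to 14.1, beside 16.5% of the list). The 2 mets-only regions above percentile 50 were those shown above at Itga5 (chr15:103393579-103394000, list percentile 56.9) and Itgb5 (chr16:33873215-33873645, 53.0, with the AP-1 letters).

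Itga2 (chr13:114833081-114932100) had no tumor-only region among 18 and 3 mets-only regions of 21, all 131 to 140 kb from its 5′ end and nearest to Mocs2, the highest at list percentile 18.5. Itga3 (chr11:95044474-95076801) also had none, among 22, and of its 3 mets-only regions 1 was intronic and 2 were nearest to Dlx3, with the highest at 28.0. Itga5 (chr15:103344286-103366763) had 3 mets-only regions of 20, 1 beside its start at list percentile 12.0 and 2 upstream, and 1 tumor-only region of 18, at 0.163. At Itga6 (chr2:71745616-71858416) 2 of 20 regions were mets-only, the higher at 26.2, and 1 of 19 was tumor-only, at 5.83. Itgav (chr2:83724397-83806916) had 2 mets-only regions of 20, both inside the gene and at or below 21.4, and no tumor-only region of 18.

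Itgb1 (chr8:128685654-128733200) was the single member with no mets-only region, where 29.0% of protein-coding genes with a region had none; it had 8 regions in each list and 1 tumor-only, at 14.8. Itgb4 (chr11:115974709-116008412) had 1 tumor-only region, the highest-ranked of the 5 at list percentile 35.4, and 2 mets-only regions of 20, at or below 20.0; the tumor-only region is nearest to Galk1. Itgb5 (chr16:33829665-33949338) and Itgb6 (chr2:60598292-60722643) had 6 mets-only regions each, of 21 and 27, and 5 of the 6 in each case lay inside the gene body. The mets-only regions at Itgb5 reached list percentiles 53.0, 47.7 and 42.1, and those at Itgb6 no more than 23.8, while the 1 tumor-only Itgb5 region stood at 5.56. At Itgb8 (chr12:119158022-119238802) the primary tumor list had 1 region, at the start site, and the mets list had 3, the added ones being 8.04 kb into the gene at 33.3 and 26.4 kb upstream at 8.79, both with the AP-1 letters. The human control list held 9 regions at ITGB8, the fewest of any human member as well. Per 100 kb of window the mouse loci ran from 0.553 regions at Itgb8 to 16.6 at Itga3 in the primary tumor list, and the human loci from 4.86 at ITGB8 to 16.1 at ITGB4 in the control list.

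**Figure D3:**
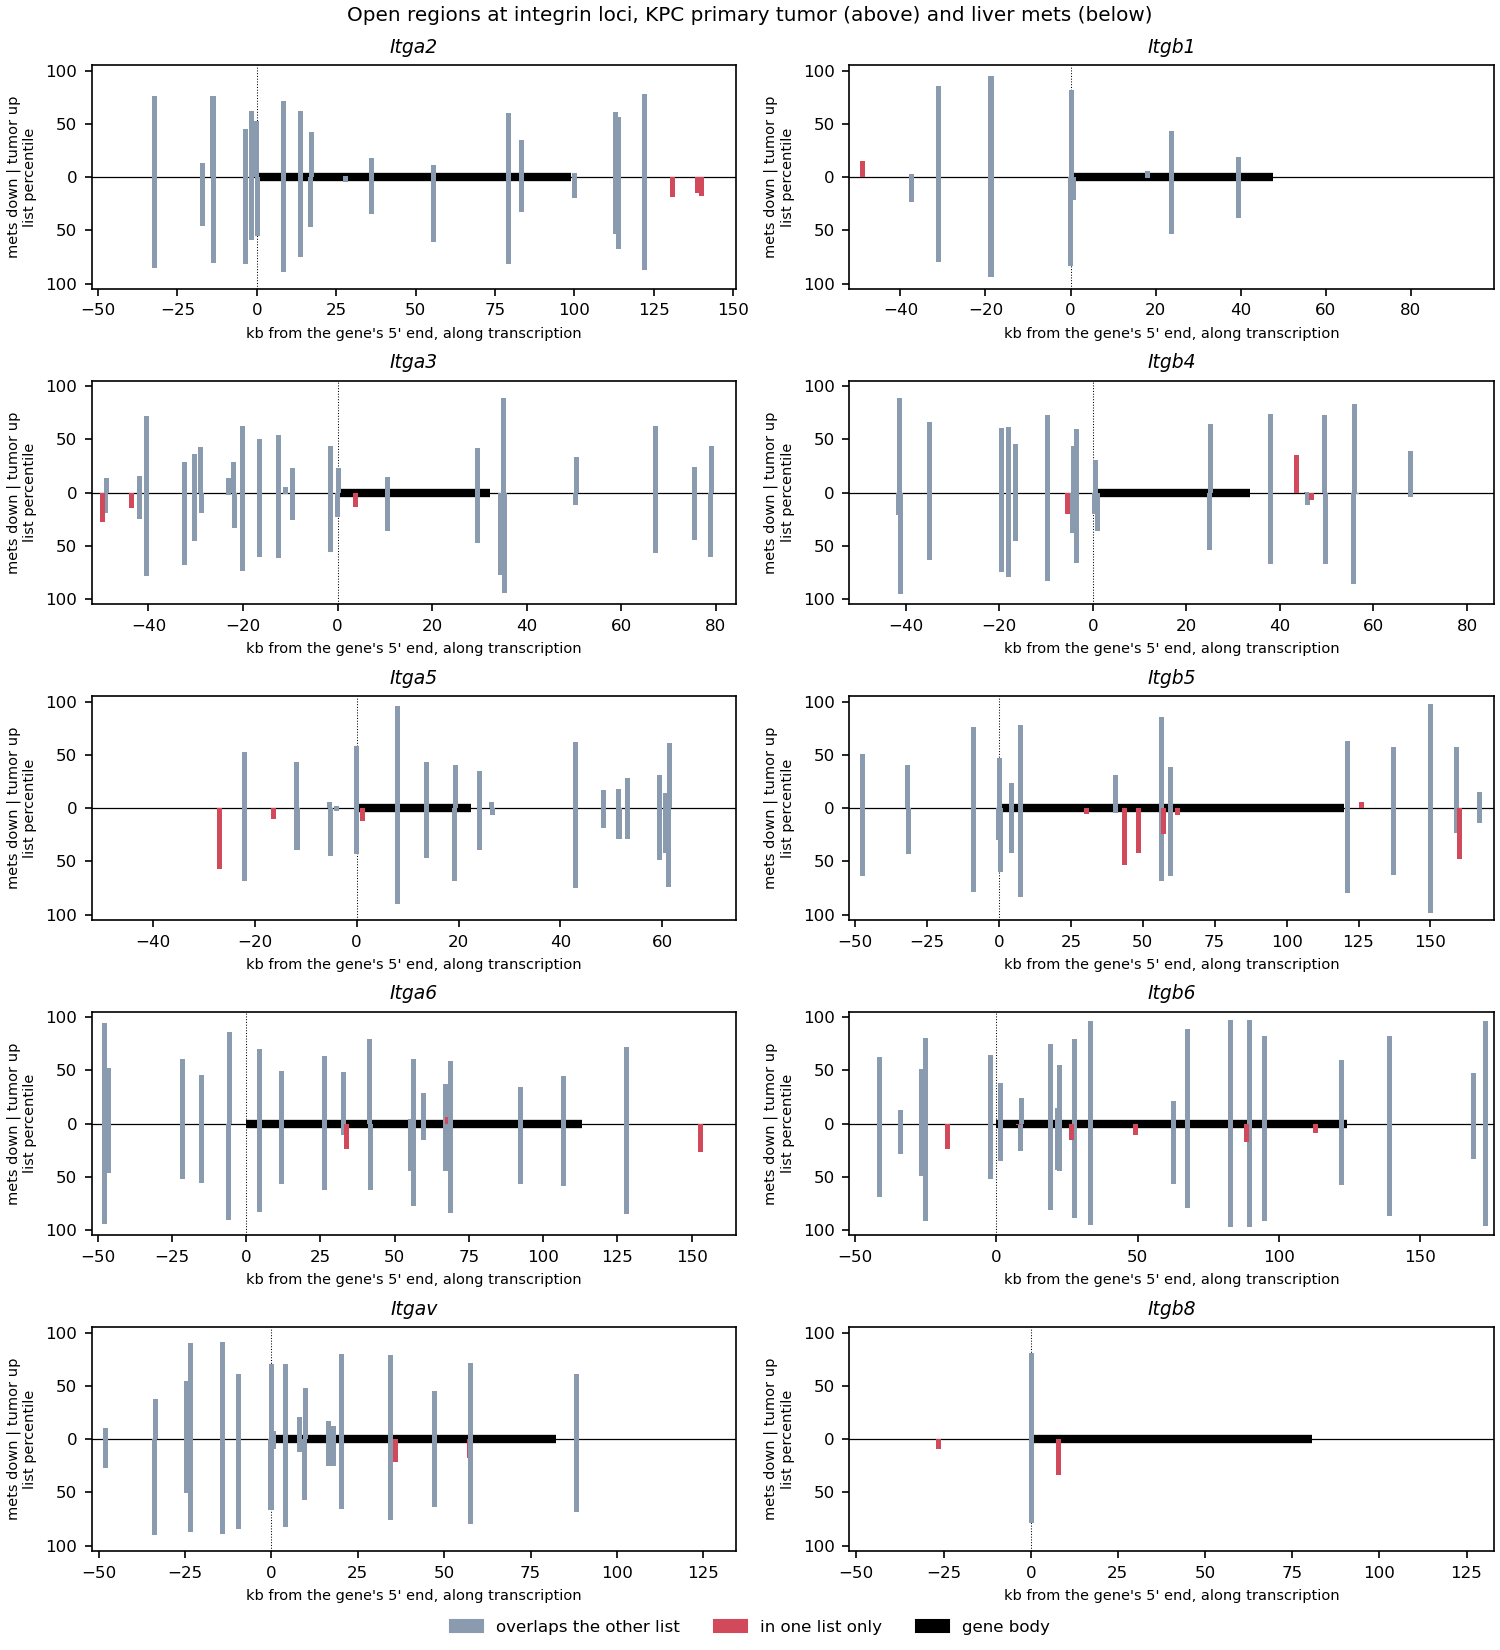
Regions at the 10 mouse loci by distance in kb from the gene's 5′ end along transcription, with the list percentile upward for the primary tumor and downward for the mets. Red regions had no overlap in the other list; Itgb5 and Itgb6 show 6 each in the mets, and Itgb8 is nearly empty in both lists.

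Ranks of the 151 shared regions moved about as often as those of the list. The median change, mets minus primary tumor, was 1.08 points, with 69 lower and 82 higher (54.3% higher, against 51.0% of all shared regions). By more than 10 points 30 regions (19.9%) were lower, beside 20.0% of all shared regions, and 33 (21.9%) were higher, beside 20.0%. With percentiles in the whole lists the median was 5.29 and 64.9% ranked higher in the mets, beside 64.9% of all shared regions. By over 10 points 11.9% were then lower, beside 12.4% of all, and 34.4% higher, beside 30.8%. The largest median rise was at Itga2, 7.32 points, with 13 of 18 regions higher in the mets, 5 of them by over 10. The Itga2 intronic region 55.8 kb from the 5′ end went from 7.94 to 50.6 and a region 3.52 kb upstream of Itga2 from 40.1 to 76.0. At Itgb4 the median was -7.93, with 8 of 15 regions lower and 7 higher in the mets. By over 10 points 7 fell and 2 rose, in a window where 8 of 16 primary tumor regions had Itgb4 as the nearest coding start. Its largest fall, -32.8, was in a region 68.0 kb from the 5′ end and nearest to Unk.

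Loci with small medians still held large moves. Itga6 had a median of 2.19, yet its intronic region with the AP-1 letters (chr2:71778376-71778747) fell from 44.2 to 4.93, the largest fall of a pair facing one another alone apart from 1 downstream of Itgb5 nearest to Kalrn (-40.2), while another intronic region rose from 2.55 to 32.1. At Itgav the region 33.6 kb upstream rose from 32.6 to 87.1, a change of 54.5, the largest rise of all members, and its nearest coding start is that of Zc3h15. Itgb6 gained rank at 2 AP-1-bearing intronic regions, from 16.3 to 46.1 and from 10.2 to 31.2. The medians of Itga3, Itga5, Itgav, Itgb1, Itgb5 and Itgb6 lay between -2.01 and 2.06, and the 1 shared region of Itgb8 changed by -6.06. The largest falls of the remaining loci were -28.0 at Itga3, -23.7 at the start of Itga5, -22.2 at Itgb6, -22.1 at Itgav and -15.7 at Itga2. Their rises reached 35.8 at Itga3, 29.5 at Itga5, 19.9 at Itgb5, 15.2 at Itgb4 and 11.9 at Itgb1. The change of -67.8 at the start of Itgb1 does not compare the same stretch of DNA: the primary tumor region of 1387 bp at list percentile 81.4 faced 2 mets regions, of 564 bp at 83.5 and of 696 bp at 21.7, and the longer overlap was with the weaker one.

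Of the 10 mouse members 9 had a start-site region in the primary tumor list and all 10 in the mets list, where 58.0% and 59.1% of protein-coding genes had one. The exception was Itgb6, whose mets region lay at a start site 49.4 kb into the annotated gene (chr2:60672989-60673470) at list percentile 10.5. The human ITGB6 start-site region was likewise the lowest of the human set when the strongest such region of each gene was taken. In list percentiles, the strongest start-site region of Itgb5 went from 85.2 in the primary tumor to 68.8 in the mets. That of Itga6 went from 79.2 to 62.6 and that of Itga5 from 58.6 to 43.4. The Itgb5 and Itga6 regions lay at internal starts, 56.5 and 41.6 kb from the 5′ end, and the Itga5 region at its 5′ end. Itgb1 (81.4 and 83.5), Itgb8 (80.6 and 78.7), Itgav (70.3 and 66.6) and Itga2 (52.2 and 55.6) moved by less than 4 points, where Itgb1 is given with the stronger of its 2 mets regions. The Itgb4 region, 1413 bp long at 30.2, also faced 2 mets regions, 632 bp at 20.0 and 467 bp at 35.8, so its direction depends on which is taken. Itga3 stood at 22.8 in both lists, at its 5′ end. The human ITGA3 region at 77.2 in the control list lay 8.72 kb into the gene, and the human region over the 5′ end ranked at 64.2 there. For Itgb6 the strongest regions were intronic, at 97.6 in the primary tumor 89.6 kb from the 5′ end.

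The rule limited the regions to the windows but did not use their place within them or their sequence. In the control list 28 of the 184 lay within 1 kb of a start of the member, 32 near a start of another gene, 57 in introns of the member, 42 upstream and 23 downstream. Of the 39 control-only regions 35 lay outside any start-site window, as did 24 of the 29 mets-only regions. The AP-1 letters, bound by the FOS and JUN family, occurred in the central 300 bp of 45 of 184 control regions (24.5%, beside 24.5% of all control regions), 45 of 156 HNF4G-KO regions (28.8%, beside 25.1%), 51 of 156 primary tumor regions (32.7%, beside 30.4%) and 59 of 186 mets regions (31.7%, beside 30.8%). Of the control-only regions 4 of 39 held them (10.3%, 4.06 to 23.6), beside 22.7% of all control-only regions. The HNF4 letters CAAAGTCCA were in none of the 39 control-only regions (upper bound 8.97%; 1.35% of all control-only regions held them), in 1 of the 184 control regions, 19.8 kb upstream of ITGA3, and in 3 of the 156 HNF4G-KO regions, at ITGA3, ITGA6 and ITGB5. A match says only that these letters are in the window, and other spellings of each site were not searched.

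The rest of the adhesion pathway was counted over the same windows. The 16 other integrin genes had 50 of 228 control regions (21.9%) control-only and 7 of 191 HNF4G-KO regions (3.66%) KO-only, close to the shares of the 10 members. The 11 genes of matrix ligands, such as the laminin chains and fibronectin, had 48 of 197 (24.4%) and 9 of 163 (5.52%), and 16 genes of adhesion adaptors and kinases, such as talin and FAK, had 68 of 290 (23.4%) and 18 of 245 (7.35%). In KPC the other integrins had 12 of 168 tumor-only (7.14%) and 19 of 183 mets-only regions (10.4%), the ligands 12 of 133 (9.02%) and 37 of 161 (23.0%), and the adaptors 17 of 233 (7.30%) and 49 of 274 (17.9%). The whole lists stood at 25.0% control-only, 6.76% KO-only, 8.51% tumor-only and 20.2% mets-only, and 9 of these 12 shares were below them. Above them were the KO-only share of the adaptors and the tumor-only and mets-only shares of the ligands.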

How the data were processed

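ATAC-seq was performed on 4 samples in each of 4 groups, and 1 list of open regions per group was analysed. The lists hold a position and a score per region, as the authors deposited them; how the score was scaled, how replicates were merged and the settings of peak calling are not given for these ATAC-seq lists in the sources used here. The study's methods say how replicates were pooled and peaks called for its ChIP-seq only. The submitters' processing notes name Bowtie2 2.2.6, MACS2 2.1.1.20160309 and DiffBind, with hg38 and mm10. Reads per library are not in the lists, so depth is unknown. HPAF-II lists were read on hg38 and KPC lists on mm10, where no region ends past a chromosome. Gene bodies and starts came from GENCODE 44 and M21.

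Regions were shared at an overlap of 1 bp, percentiles gave ties their middle rank, and motif letters were searched on both strands in 300 bp around the center. Moves over 10 points were counted. The steps (Python 3.11.15, pandas 2.3.3, scipy 1.17.1, pysam 0.24.0) were tested on simulated lists. Members, gene lists and motifs were chosen with earlier results of these data known. Every member was named, with its strongest one-list regions, its start-site region and its largest changes; MOCS2, MUC13 and other neighbors are named as the nearest coding start.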

Additional observations from a re-analysis of the deposited data

How the results depend on the processing

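The shares rest on 1 list per group, so neither replicate spread nor library depth could be set against them. No paired analysis was possible because each group has a single list and no value per replicate, and for the same reason no replicate could be left out. Under 6 alternatives each, the control-only, KO-only, tumor-only and mets-only shares at the integrins gave 24 values, all below the share of the whole list under the same setting, 13 of them within the Wilson interval of the reported share. Counting regions within 500 bp as shared gave 15.8% control-only and 1.28% KO-only, against 22.1% and 5.49% of the lists. Above percentile 50, the shares were 0.943% control-only, 0% KO-only, 0% tumor-only and 2.15% mets-only, against 1.86%, 0.0556%, 0.503% and 4.17% of the lists. At equal list size they were 11.7%, 8.97%, 12.8% and 10.2%, against 15.1%, 12.7%, 15.6% and 14.0%. In the gene body alone the KO-only share was 1.39%. With percentiles taken in the whole lists, 69.0% of shared integrin regions ranked lower in HNF4G-KO, beside 70.0% of all shared regions, and 64.9% ranked higher in the mets, beside 64.9%; list length enters these values. Pairing with the strongest overlapping region, an alternative chosen after seeing the data, left both shares at 43.4% and 54.3%. Of 240 values for single loci, 55 moved outside their interval. Flanks of 50 kb take in neighboring genes.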
